A study of Mus musculus with 33 samples.

Results

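The genes described here are those of the mouse major histocompatibility complex (MHC) and of antigen presentation that the deposited count table names. They are every symbol beginning with H2-, the gene family of the mouse MHC, together with B2m, Tap1, Tap2, Tapbp, Psmb8, Psmb9, Psmb10, Cd74, Ciita and Nlrc5. This gave 38 of the 17982 genes in the table. By role they comprise 20 class I heavy chains, 7 class II chains and their chaperones, 4 genes of the class I light chain and peptide loading, 3 immunoproteasome subunits, 2 transactivators, and 2 genes that lie in the MHC region but encode no MHC chain (H2-Ke2 and H2-Ke6). With edgeR's filter on low counts 30 members could be tested and 8 could not.

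The study asked how mouse tail-tip fibroblasts change when they are reprogrammed into osteoblasts, the cells that lay down bone. The fibroblasts came from tail tips of mice with the Col2.3GFP reporter, and carry a green fluorescent protein (GFP) driven by a fragment of a type I collagen promoter that is active in osteoblasts. Induced osteoblasts (iOB) were such fibroblasts after lentivirus had brought in transcription factor genes and after a change to osteogenic medium. Calvarial osteoblasts (calvarial-OB) were grown from cells of the skull vault and differentiated, and their labels mark them as a second dataset, so data set and cell type cannot be told apart. Poly-A RNA of each group was sequenced as 3 libraries of 5646299 to 15023771 counts. A further group, iOB sorted for GFP (iOB GFP+), is known here only through the authors' deposited table against fibroblasts. No group is labelled as having received a control virus or osteogenic medium alone, so their effects and that of the delivered factors cannot be told apart. The age, sex and strain of the mice, and so the MHC haplotype, are not given in the sources used here. Whether the groups share a haplotype is not given either, and its part in differences of H2 genes between groups, the ratio of H2-D1 to H2-K1 included, was not tested. Levels are given as CPM, read counts normalised to library sizes that were scaled by the trimmed mean of M-values, and are listed for replicates 1, 2 and 3. A gene was called where edgeR's Benjamini-Hochberg adjusted p over all 13438 tested genes was below 0.05.

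Class I molecules sit on nearly all nucleated cells and show T cells peptides made inside the cell. A heavy chain (H2-K1, H2-D1 and relatives) pairs with the light chain beta-2-microglobulin (B2m), the transporter Tap1-Tap2 carries peptides into the endoplasmic reticulum, and tapasin (Tapbp) helps load them. Psmb8, Psmb9 and Psmb10 are the interferon-inducible catalytic subunits that replace their constitutive counterparts in the proteasome, and Nlrc5 switches on class I genes. Class II molecules (H2-A and H2-E, loaded with the help of Cd74 and H2-DM under the control of Ciita) are known chiefly from macrophages, dendritic cells and B cells. Resting fibroblasts and osteoblasts are known for class I and for little class II.

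Promoter sequence was at hand for 25 of the 38 members (RefSeq, GRCm38.p6, 250 bases before each start searched on both strands; the authors' own build was mm9). The stretches below are shown because they hold the letters through which interferon and NF-kappaB factors are known to reach class I genes. Capitals mark matches to an interferon response element, GAANNGAAA, which on the printed strand reads TTTCACTTC, and to a kappaB site, GGGGANTCC, whose matches on the 2 strands of H2-K1 and H2-D1 overlap. In B2m the capitals mark a repeat form of the interferon element, GAAANNGAA.
H2-K1, chr17:34000413-34000462, minus strand: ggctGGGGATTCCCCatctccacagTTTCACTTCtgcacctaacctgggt
H2-D1, chr17:35262919-35262968, plus strand: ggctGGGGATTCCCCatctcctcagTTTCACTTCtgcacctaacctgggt
H2-Q4, chr17:35379439-35379488, plus strand: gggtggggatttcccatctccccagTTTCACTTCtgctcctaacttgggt
H2-Q10, chr17:35469909-35469958, plus strand: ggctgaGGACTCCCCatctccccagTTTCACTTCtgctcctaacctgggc
H2-M3, chr17:37270108-37270157, plus strand: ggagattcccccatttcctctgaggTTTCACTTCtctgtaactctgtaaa
B2m, chr2:122147523-122147572, plus strand: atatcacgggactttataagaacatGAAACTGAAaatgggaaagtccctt
The stretches of H2-K1 and H2-D1 differed at 1 of 50 bases, and those of H2-Q4 and H2-Q10 each differed from H2-D1 at 5. GAANNGAAA occurred in 6 of the 13 class I heavy chain promoters at hand (the 5 shown and H2-M2) and in 6.31% of all 32851 promoter windows of the same length. GAAANNGAA occurred in B2m, H2-T22 and H2-T23 and in 7.13% of all windows, and GGGGANTCC in H2-K1, H2-D1 and H2-Q10 and in 1.04%. These letters are matches in the reference, not measured binding. Only exact matches were counted and set in capitals, and other forms of a kappaB site were not searched. Lower case in H2-Q4, H2-M3 and B2m therefore does not show that they lack such a site. The motifs were set after matches in these promoters had been seen. The stretches of H2-K1, H2-D1, H2-Q4 and H2-Q10 are also much alike, so their matches are not independent. The shares therefore cannot test whether these promoters hold the motifs more often than others.

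Class II promoters are known for a Y box, CTGATTGG, and the stretch between Psmb9 and Tap1 is known as a promoter shared by both genes. They are shown for the 2 class II chains that matched and for the whole of the shared promoter, whose genes moved unequally in calvarial-OB. Capitals mark the Y box, which reads CCAATCAG on the strand printed for Tap1.
H2-Aa, chr17:34287860-34287909, minus strand: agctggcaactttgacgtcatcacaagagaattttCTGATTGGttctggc
H2-Eb1, chr17:34305770-34305819, plus strand: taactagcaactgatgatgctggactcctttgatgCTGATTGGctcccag
Psmb9 to Tap1, chr17:34187331-34187555, plus strand: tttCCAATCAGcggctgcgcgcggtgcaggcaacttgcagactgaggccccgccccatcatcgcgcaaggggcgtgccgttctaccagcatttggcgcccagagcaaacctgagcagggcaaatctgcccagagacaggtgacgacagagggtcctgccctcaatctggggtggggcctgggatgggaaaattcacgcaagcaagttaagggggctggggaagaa
The Y box in this 225-base stretch began 11 bases before the Psmb9 start and 222 bases before the Tap1 start. CTGATTGG was also found in H2-D1, H2-T23 and H2-M9, and in 3.83% of all windows. It too was set after matches in these promoters had been seen, so its share tests no excess.

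Most members were higher in both osteoblast cultures than in fibroblasts. In iOB 26 of the 30 tested members were called higher and none lower, where 22.7% of all tested genes were called higher and 20.6% lower. The median log2 fold change of the 30 was 2.30, beside -0.04 over all genes. Values did not overlap between the groups for 27 members, all higher in iOB, where 30.2% of all genes were higher in every iOB library and 32.8% lower. In calvarial-OB 24 members were called higher and 1 lower, beside 28.4% and 27.4% of all genes, with a median of 1.34 beside 0.02. Calvarial-OB values lay above all fibroblast values for 22 members and below them for none, beside 30.2% and 30.3% of all genes. These comparisons share the fibroblast libraries. Calvarial-OB replicate 1 stood apart from its group, with correlations across genes of 0.970 and 0.967 with replicates 2 and 3, which correlated at 0.985, and results that rest on it are given without it as well. The sample groups are whole cultures, in which more RNA of a gene per cell and more cells that make it cannot be told apart.

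**Figure D1:**
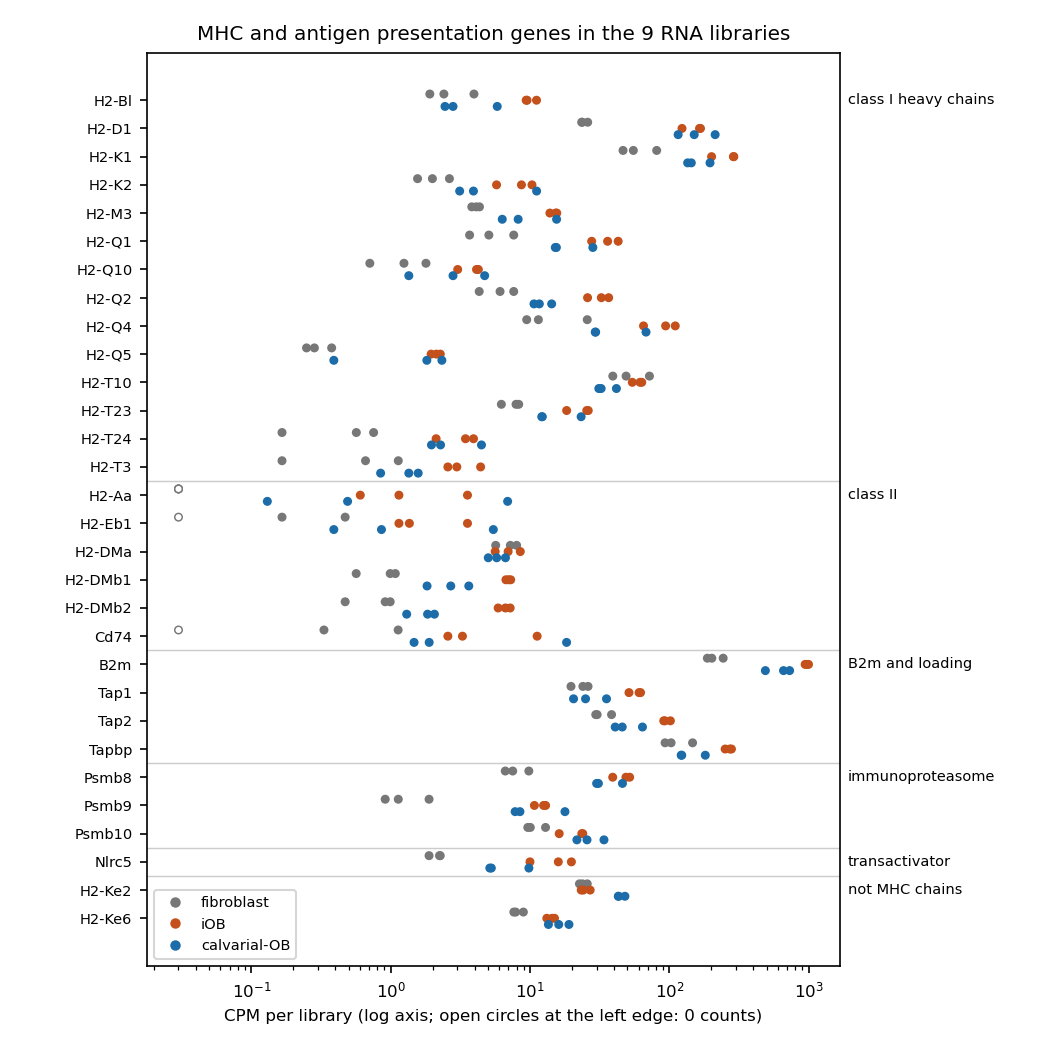
CPM of the 30 tested members in each of the 9 libraries on a log axis, grouped by role, with 1 point per library. Grey fibroblast points lie left of all orange iOB points for 27 members, and open circles at the left edge mark libraries with 0 counts of H2-Aa, H2-Eb1 or Cd74.

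The classical class I heavy chains H2-K1 and H2-D1 rose in both cultures. H2-K1 stood at 81.02, 55.1 and 46.5 CPM in the fibroblast libraries, 201, 289.9 and 288 in iOB and 196, 144 and 135 in calvarial-OB. The 3 groups did not overlap, and H2-K1 rose 4.26-fold in iOB (log2 2.09 ± 0.22, SE; edgeR adjusted p = 1.5e-05) and 2.59-fold in calvarial-OB (1.38 ± 0.22; edgeR adjusted p = 2.2e-04). In fibroblasts H2-D1 measured 25.9, 23.7 and 23.5 CPM, against 123, 164 and 167 in iOB and 213, 115 and 151 in calvarial-OB. Every library of both osteoblast cultures exceeded every fibroblast library at least 4-fold, and the log2 fold changes were 2.64 ± 0.21 in iOB (edgeR adjusted p = 1.6e-06) and 2.71 ± 0.21 in calvarial-OB (edgeR adjusted p = 6.5e-07). The balance of the 2 chains also moved. For each 100 counts of H2-K1 there were 32.0 to 50.5 counts of H2-D1 in fibroblasts, 56.7 to 61.3 in iOB and 80.4 to 111 in calvarial-OB, ranges that did not overlap. These ratios are not corrected for gene length and serve only to compare libraries. Class I heavy chains have near-identical copies, and how reads shared between them were counted is not given in the sources used here, so the split between H2-K1, H2-D1, the H2-Q genes and the H2-T genes is uncertain.

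The 20 heavy chain genes together held 185 ± 50.2 CPM in fibroblasts, 698 ± 122 in iOB and 473 ± 138 in calvarial-OB (mean ± SD, n = 3 each). Of the 14 tested, 13 were called higher in iOB, beside 22.7% of all tested genes. The median log2 fold change over all 14 was 2.25. In calvarial-OB 11 were called higher and 1 lower, beside 28.4% and 27.4% of all tested genes, with a median of 1.32. The genes of the Q region, which include nonclassical chains, followed. Fibroblast libraries held 25.7, 11.5 and 9.46 CPM of H2-Q4, iOB libraries 65.2, 110.1 and 93.9 and calvarial-OB libraries 67.9, 29.5 and 29.4. The H2-Q1 values were 7.63, 3.68 and 5.06 CPM in fibroblasts, 27.7, 36.01 and 42.9 in iOB and 28.2, 15.4 and 15.2 in calvarial-OB. For H2-Q2, CPM came to 7.63, 6.09 and 4.31 in fibroblasts, 25.9, 32.5 and 36.6 in iOB and 14.3, 10.7 and 11.7 in calvarial-OB. In each of these 3 genes the fibroblast libraries were below all others. H2-Q4 rose by 2.52 ± 0.40 in iOB (edgeR adjusted p = 3.4e-04) and by 1.42 ± 0.40 in calvarial-OB (edgeR adjusted p = 0.0095), or by 3.11 and 2.01 without fibroblast replicate 1, its highest fibroblast library. H2-Q1 rose by 2.67 ± 0.30 and 1.80 ± 0.30 and H2-Q2 by 2.402 ± 0.22 and 1.02 ± 0.22 in iOB and calvarial-OB.

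The Q region also holds members with few counts. H2-Q10 stood at 1.79, 0.708 and 1.24 CPM in the fibroblast libraries, 3.02, 4.13 and 4.25 in iOB and 4.72, 1.35 and 2.80 in calvarial-OB. In fibroblasts H2-Q5 measured 0.377, 0.283 and 0.249 CPM, against 2.27, 1.95 and 2.13 in iOB and 1.82, 2.33 and 0.391 in calvarial-OB. H2-Q10 overlapped between fibroblasts and calvarial-OB, and H2-Q5, listed by RefSeq as a transcribed pseudogene, was low in calvarial-OB replicate 3 as well as in fibroblasts. In iOB H2-Q10 rose by 1.55 ± 0.44 (edgeR adjusted p = 0.014, and 0.0501 when fibroblast replicate 2 was left out) and H2-Q5 by 2.74 ± 0.64 (edgeR adjusted p = 0.0044). In calvarial-OB H2-Q10 had 1.18 ± 0.44 (edgeR adjusted p = 0.037), and it missed the threshold when fibroblast replicate 2 or 3 or calvarial-OB replicate 1 or 3 was left out (adjusted p 0.069 to 0.13) and in a fit of these 2 groups alone (0.065). H2-Q5 had 2.14 ± 0.66 there (edgeR adjusted p = 0.015), lost without fibroblast replicate 3 or calvarial-OB replicate 2 (adjusted p = 0.057 and 0.066).

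H2-K2 and H2-Bl are listed by RefSeq as transcribed pseudogenes. Fibroblast libraries held 2.64, 1.56 and 1.99 CPM of H2-K2, iOB libraries 5.75, 10.3 and 8.67 and calvarial-OB libraries 11.1, 3.92 and 3.12. The H2-Bl values were 3.96, 2.41 and 1.91 CPM in fibroblasts, 9.38, 9.52 and 11.1 in iOB and 5.81, 2.45 and 2.80 in calvarial-OB. H2-K2 was above fibroblasts in every library of both cultures, and H2-Bl only in those of iOB. H2-K2 rose by 1.98 ± 0.47 in iOB (edgeR adjusted p = 0.0048) and had 1.48 ± 0.47 in calvarial-OB (edgeR adjusted p = 0.018), which was 0.70 and lost its call without calvarial-OB replicate 1 (adjusted p = 0.080) and also lost it without fibroblast replicate 2 or 3 (0.061 and 0.059). H2-Bl rose by 1.85 ± 0.34 in iOB (edgeR adjusted p = 9.8e-04) and had 0.39 ± 0.36 in calvarial-OB (edgeR adjusted p = 0.38), which was -0.06 without calvarial-OB replicate 1.

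Among the T and M region genes, whose products include chains that present to natural killer and unconventional T cells, H2-T23 encodes Qa-1 and H2-M3 presents formylated peptides. For H2-T23, CPM came to 8.29, 7.93 and 6.22 in fibroblasts, 18.3, 26.1 and 25.5 in iOB and 23.2, 12.1 and 12.2 in calvarial-OB. H2-M3 stood at 4.33, 4.11 and 3.82 CPM in the fibroblast libraries, 15.3, 13.9 and 15.5 in iOB and 15.5, 8.21 and 6.31 in calvarial-OB. In fibroblasts H2-T24 measured 0.754, 0.567 and 0.166 CPM, against 2.12, 3.44 and 3.93 in iOB and 4.48, 1.96 and 2.28 in calvarial-OB. For all 3 the fibroblast libraries were lowest. H2-T23 rose by 1.65 ± 0.26 in iOB (edgeR adjusted p = 3.4e-04) and 1.08 ± 0.26 in calvarial-OB (edgeR adjusted p = 0.0042). H2-M3 rose by 1.86 ± 0.29 and 1.27 ± 0.30 (edgeR adjusted p = 3.1e-04 and 0.0032), and H2-T24 by 2.70 ± 0.53 and 2.55 ± 0.52 (edgeR adjusted p = 0.0014 and 0.0012). Fibroblast libraries held 0.659, 1.13 and 0.166 CPM of H2-T3, iOB libraries 2.57, 2.98 and 4.42 and calvarial-OB libraries 1.57, 1.35 and 0.846. The H2-T10 values were 71.9, 39.2 and 48.9 CPM in fibroblasts, 54.1, 63.3 and 61.5 in iOB and 41.7, 31.1 and 32.4 in calvarial-OB. H2-T3, the thymus leukaemia antigen gene, was higher in every iOB library, by 2.45 ± 0.50 (edgeR adjusted p = 0.0019), and overlapped with fibroblasts in calvarial-OB (1.01 ± 0.55; edgeR adjusted p = 0.13). H2-T10, listed by RefSeq as a transcribed pseudogene, was the exception among heavy chains. It did not pass in iOB (0.16 ± 0.19; edgeR adjusted p = 0.54) and was called lower in calvarial-OB (-0.61 ± 0.20; edgeR adjusted p = 0.018), although its groups overlapped and the call was lost without fibroblast replicate 1 (log2 -0.34) or calvarial-OB replicate 2 or 3 (adjusted p 0.076 to 0.096).

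**Figure D2:**
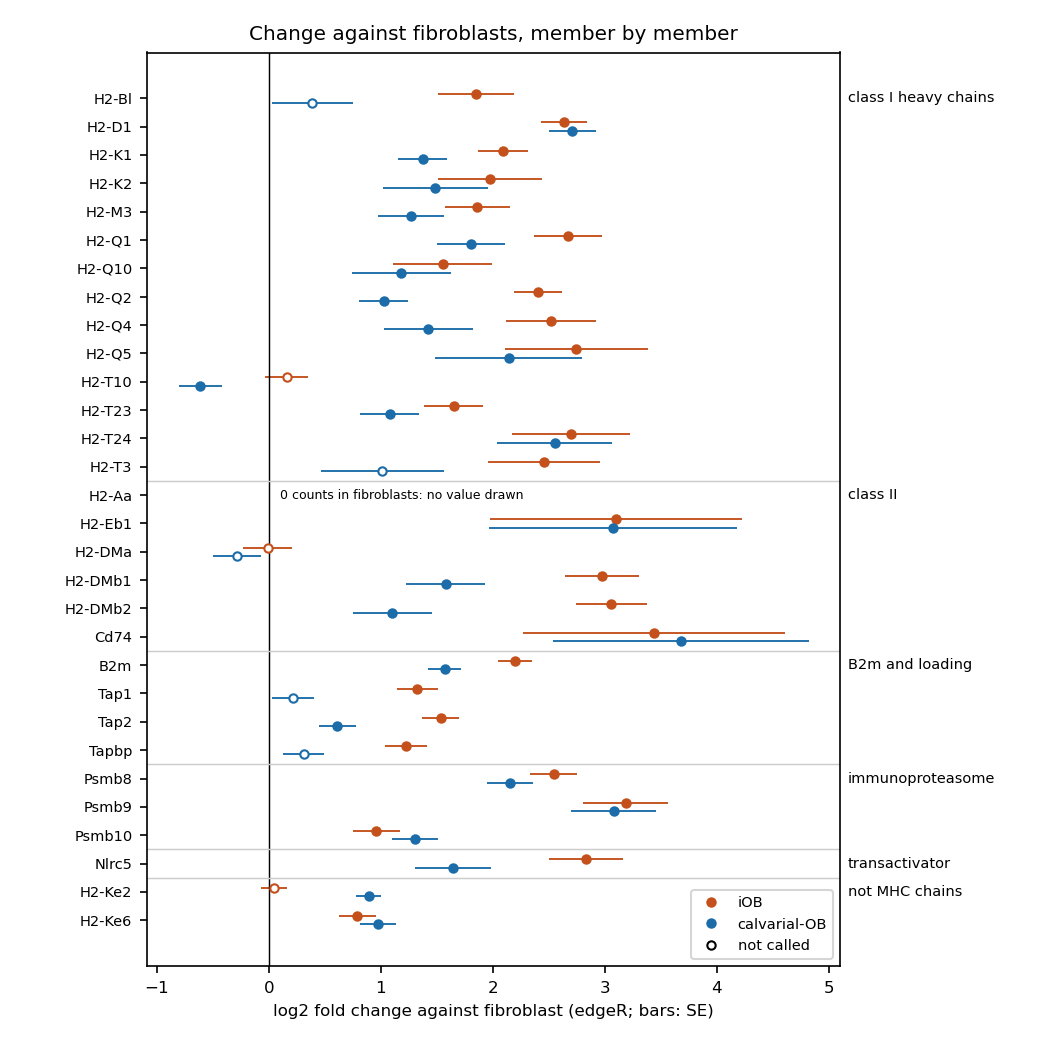
log2 fold change of each tested member except H2-Aa against fibroblasts, iOB in orange and calvarial-OB in blue, with bars of 1 SE and open points where the gene was not called. No value is drawn for H2-Aa, which had 0 counts in fibroblasts. iOB points lie at 0.96 or more except for H2-T10, H2-DMa, H2-Ke2 and H2-Ke6, and calvarial-OB points of Tap1, Tapbp, H2-Bl, H2-T3 and H2-DMa are open.

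The light chain and the loading machinery rose in iOB as a group, with a median log2 fold change of 1.43. All 4 of 4 were called higher, beside 22.7% of all tested genes. In calvarial-OB 2 of 4 were called higher, beside 28.4% of all tested genes, with a median of 0.46. For B2m, CPM came to 243, 202 and 187 in fibroblasts, 942, 995 and 969 in iOB and 729, 488 and 659 in calvarial-OB. The 3 groups were separate, and B2m rose 4.60-fold in iOB (2.20 ± 0.15; edgeR adjusted p = 6.1e-07) and 2.97-fold in calvarial-OB (1.57 ± 0.15; edgeR adjusted p = 3.6e-06). Tap1 stood at 23.9, 26.1 and 19.7 CPM in the fibroblast libraries, 51.3, 62.04 and 60.5 in iOB and 35.4, 25.01 and 20.5 in calvarial-OB. In fibroblasts Tap2 measured 38.4, 29.6 and 30.3 CPM, against 91.04, 92.8 and 102 in iOB and 64.1, 45.8 and 40.8 in calvarial-OB. Fibroblast libraries held 147, 103 and 93.1 CPM of Tapbp, iOB libraries 251, 271 and 279 and calvarial-OB libraries 181, 121 and 123. All iOB libraries were above all others for these 3 genes, while calvarial-OB overlapped with fibroblasts for Tap1 and Tapbp. Tap1 rose by 1.33 ± 0.19 in iOB (edgeR adjusted p = 1.3e-04), Tap2 by 1.53 ± 0.17 (1.7e-05) and Tapbp by 1.23 ± 0.19 (2.4e-04). In calvarial-OB Tap2 rose by 0.61 ± 0.16 (edgeR adjusted p = 0.0078), while Tap1 had 0.21 ± 0.19 (edgeR adjusted p = 0.36), or -0.04 without calvarial-OB replicate 1, and Tapbp 0.31 ± 0.19 (edgeR adjusted p = 0.17), which passed the threshold only once fibroblast replicate 1 was left out (0.53, adjusted p = 0.025).

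All 3 immunoproteasome subunits rose in both cultures, with median log2 fold changes of 2.54 in iOB and 2.15 in calvarial-OB. The Psmb8 values were 9.80, 7.51 and 6.64 CPM in fibroblasts, 39.2, 51.8 and 48.8 in iOB and 46.01, 30.03 and 30.9 in calvarial-OB. For Psmb9, CPM came to 1.88, 1.13 and 0.913 in fibroblasts, 10.7, 12.5 and 12.9 in iOB and 17.8, 8.46 and 7.81 in calvarial-OB. Psmb10 stood at 12.9, 9.63 and 10.04 CPM in the fibroblast libraries, 16.2, 23.5 and 23.9 in iOB and 33.9, 25.6 and 21.7 in calvarial-OB. Fibroblast libraries were lowest for each. Psmb8 rose 5.83-fold in iOB (2.54 ± 0.21; edgeR adjusted p = 2.1e-06) and 4.45-fold in calvarial-OB (2.15 ± 0.21; edgeR adjusted p = 4.1e-06). Psmb9 rose 9.10-fold and 8.46-fold (3.19 ± 0.38 and 3.08 ± 0.38), and Psmb10 1.95-fold and 2.47-fold (0.96 ± 0.21 and 1.30 ± 0.21). Psmb9 and Tap1, which share the promoter printed above, had log2 fold changes of 3.08 and 0.21 in the same calvarial-OB libraries. The balance against their constitutive counterparts Psmb5, Psmb6 and Psmb7 moved as well. For each 100 counts of Psmb5 there were 13.7 to 21.5 counts of Psmb8 in fibroblasts, 81.7 to 105 in iOB and 53.3 to 109 in calvarial-OB. For each 100 counts of Psmb6 there were 1.22 to 2.82 of Psmb9 in fibroblasts, 14.8 to 18.6 in iOB and 6.86 to 14.5 in calvarial-OB, and for each 100 of Psmb7 there were 10.8 to 16.6, 18.3 to 29.7 and 18.4 to 41.5 of Psmb10. The highest calvarial-OB value of each ratio was that of replicate 1, and replicates 2 and 3 held 53.3 and 57.8 of Psmb8, 6.86 and 6.94 of Psmb9, and 24.6 and 18.4 of Psmb10. Of the 6 genes of the constitutive subunits and the proteasome activator, 2 were called higher in iOB and 3 in calvarial-OB and none lower. Of all tested genes 22.7% were called higher in iOB and 28.4% in calvarial-OB, and 20.6% and 27.4% lower. Psme2 was at 0.51 ± 0.09 in iOB and Psmb6 at 0.74 ± 0.09 in calvarial-OB.

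Of the transactivators, Nlrc5 rose and Ciita was too low to test. In fibroblasts Nlrc5 measured 1.88, 2.27 and 2.24 CPM, against 9.98, 15.9 and 19.8 in iOB and 9.81, 5.27 and 5.14 in calvarial-OB. Its groups did not overlap, and it rose by 2.83 ± 0.33 in iOB (edgeR adjusted p = 3.0e-05) and 1.64 ± 0.34 in calvarial-OB (edgeR adjusted p = 0.0014). Ciita had 5, 2 and 2 counts in fibroblasts, 2, 2 and 2 in iOB and 9, 1 and 8 in calvarial-OB, or 0.307 ± 0.154, 0.286 ± 0.051 and 0.578 ± 0.486 CPM (mean ± SD, n = 3 each).

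Class II genes split into 2 sets. H2-DMb1 and H2-DMb2, the beta chains of the peptide exchange factor H2-DM, were higher in every library of both cultures than in fibroblasts. Fibroblast libraries held 0.565, 0.991 and 1.08 CPM of H2-DMb1, iOB libraries 7.26, 6.995 and 6.71 and calvarial-OB libraries 3.63, 2.70 and 1.82. The H2-DMb2 values were 0.471, 0.991 and 0.913 CPM in fibroblasts, 5.90, 6.65 and 7.199 in iOB and 2.06, 1.84 and 1.30 in calvarial-OB. For H2-DMa, CPM came to 8.01, 5.67 and 7.22 in fibroblasts, 6.96, 5.62 and 8.51 in iOB and 6.66, 5.76 and 5.01 in calvarial-OB. The beta chains were highest in iOB with no overlap between any of the groups, and the alpha chain H2-DMa overlapped among all 3. H2-DMb1 rose by 2.98 ± 0.33 in iOB (edgeR adjusted p = 2.1e-05) and 1.58 ± 0.35 in calvarial-OB (edgeR adjusted p = 0.0024), and H2-DMb2 by 3.06 ± 0.32 (edgeR adjusted p = 1.2e-05) and 1.10 ± 0.35 (edgeR adjusted p = 0.019; 0.085 without fibroblast replicate 1 and 0.053 without calvarial-OB replicate 1). H2-DMa had -0.01 ± 0.22 in iOB (edgeR adjusted p = 0.97) and -0.28 ± 0.22 in calvarial-OB (edgeR adjusted p = 0.29). For each 100 counts of H2-DMa there were 7.06 to 17.5 of H2-DMb1 in fibroblasts, 78.8 to 124 in iOB and 36.4 to 54.5 in calvarial-OB. How any reads shared between H2-DMb1 and H2-DMb2 were counted is not given in the sources used here, so the split between them is uncertain.

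The antigen-presenting class II chains H2-Aa, H2-Ab1 and H2-Eb1 and the invariant chain Cd74 had few counts, and 1 library in each osteoblast group held most of them. Cd74 had 12, 0 and 4 counts in the fibroblast libraries, 17, 98 and 20 in iOB and 151, 12 and 29 in calvarial-OB. H2-Aa had no counts in fibroblasts, 4, 31 and 7 in iOB and 57, 4 and 2 in calvarial-OB. H2-Eb1 had 5, 0 and 2 in fibroblasts, 9, 31 and 7 in iOB and 45, 7 and 6 in calvarial-OB. In all of them iOB replicate 2 and calvarial-OB replicate 1 were highest. H2-Ab1, which was not tested, had 3, 1 and 5 counts in fibroblasts, 2, 25 and 5 in iOB and 43, 7 and 3 in calvarial-OB. Of the summed CPM of the 4 genes, iOB replicate 2 held 65.4% of its group's and calvarial-OB replicate 1 held 85.1%.

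Calls on these genes accordingly depended on single libraries. Cd74 was called higher in iOB (3.44 ± 1.17; edgeR adjusted p = 0.032) and in calvarial-OB (3.68 ± 1.14; edgeR adjusted p = 0.016). The first call was lost without iOB replicate 2 (log2 2.43) or fibroblast replicate 2 or 3 (adjusted p 0.088 to 0.17), and the second without calvarial-OB replicate 1 (log2 1.66) or fibroblast replicate 2 or 3 (adjusted p 0.051 to 0.12). Without fibroblast replicate 1, which held 12 of the 16 fibroblast counts, the values were 4.75 and 4.98. H2-Eb1 was called in both (3.10 ± 1.13; edgeR adjusted p = 0.042, and 3.07 ± 1.11; 0.032), but in iOB the call was lost without any 1 fibroblast library or iOB replicate 1 or 2 (log2 2.36 to 4.17; adjusted p 0.0504 to 0.19). In calvarial-OB it was lost without calvarial-OB replicate 1 or fibroblast replicate 2 or 3 (log2 1.22 to 2.87; adjusted p 0.084 to 0.27), and it was 4.15 without fibroblast replicate 1 and 3.70 without calvarial-OB replicate 3. With calvarial-OB replicate 1 and iOB replicate 2 left out together, a choice made after seeing the data, some calls stayed. Cd74 stayed called in iOB (log2 2.42, edgeR adjusted p = 0.0074) and in calvarial-OB (1.67, edgeR adjusted p = 0.037). H2-Eb1 stayed called in iOB (2.36, edgeR adjusted p = 0.021) but not in calvarial-OB (1.23, edgeR adjusted p = 0.195). H2-Aa was at least 19.4-fold higher in iOB (adjusted p = 0.0502, not called, but called with DESeq2 at 0.0056 and without the filter at 0.030) and at least 19.6-fold higher in calvarial-OB (adjusted p = 0.027), where 3 counts over the summed fibroblast libraries set the bound. These bounds were 8.57-fold without iOB replicate 2 and 2.53-fold without calvarial-OB replicate 1, 36.8-fold without calvarial-OB replicate 3, and 11.5-fold to 15.0-fold without single fibroblast libraries. The H2-Aa call in calvarial-OB was lost without calvarial-OB replicate 1 or any 1 fibroblast library (adjusted p 0.0503 to 0.099). In all, 4 of 6 tested class II members were called higher in iOB and 5 in calvarial-OB, beside 22.7% and 28.4% of all tested genes. These counts became 2 without iOB replicate 2 and 1 without calvarial-OB replicate 1. Both counts were 2 without fibroblast replicate 2 or 3, and 3 without fibroblast replicate 1. Counts of 1 or 2 of 6 are near the shares of all tested genes.

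Markers of other cell types also differed between these groups. All 19 measured macrophage markers were called higher in both cultures, among them the mannose receptor gene Mrc1 (log2 5.98 ± 0.34 in iOB and 7.77 ± 0.35 in calvarial-OB) and the complement gene C1qa (7.35 ± 0.42 and 8.33 ± 0.42). Their summed CPM ran from 49.2 to 103 in fibroblasts, 2759 to 4350 in iOB and 3944 to 7520 in calvarial-OB, with the highest value in calvarial-OB replicate 1. In iOB replicate 2 the sum was 4187, beside 2759 and 4350 in replicates 1 and 3. The 5 measured dendritic cell markers summed to 1.32 to 2.41 CPM in fibroblasts, 3.48 to 4.24 in iOB and 16.5, 5.76 and 5.47 in calvarial-OB. The 3 measured B cell markers stayed at or below 0.754 CPM in every library, and of 8 T and NK cell markers only Cd4 was measured, with no counts in fibroblasts, 2, 1 and 2 in iOB and 45, 20 and 39 in calvarial-OB. All 8 osteoblast markers were called higher in both cultures. Of 9 fibroblast markers 3 were called higher and 5 lower in iOB, and 4 higher and 4 lower in calvarial-OB. Of 3 tested endothelial markers 1 was called lower in iOB and 1 higher in calvarial-OB. These lists are read against 22.7% higher and 20.6% lower of all tested genes in iOB, and 28.4% and 27.4% in calvarial-OB. The part of macrophages and dendritic cells in the class I and class II values was not tested.

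**Figure D3:**
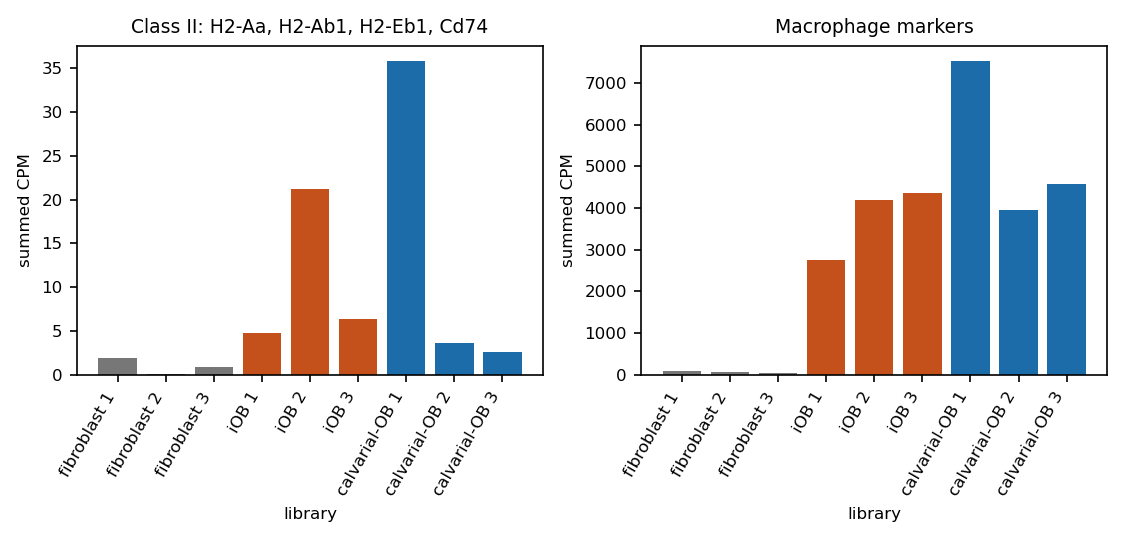
Summed CPM of H2-Aa, H2-Ab1, H2-Eb1 and Cd74 (left) and of 19 macrophage markers (right), 1 bar per library. The class II sum reaches 21.2 in iOB replicate 2 and 35.8 in calvarial-OB replicate 1 and is 6.38 or less elsewhere, while the macrophage sum is 2759 or more in every osteoblast library and 103 or less in fibroblasts.

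The 2 members that encode no MHC chain behaved separately. H2-Ke2, the RefSeq synonym of the prefoldin subunit gene Pfdn6, stood at 22.6, 23.8 and 25.7 CPM in fibroblasts, 23.3, 24.1 and 27.00 in iOB and 43.2, 47.9 and 42.97 in calvarial-OB. It was called higher in calvarial-OB (0.89 ± 0.11; edgeR adjusted p = 3.5e-05) and not called in iOB (0.04 ± 0.12; edgeR adjusted p = 0.8). H2-Ke6, the synonym of the hydroxysteroid dehydrogenase gene Hsd17b8, stood at 8.95, 7.65 and 7.88 in fibroblasts, 14.97, 13.2 and 14.4 in iOB and 19.01, 16.1 and 13.5 in calvarial-OB. It rose in both (0.79 ± 0.17 and 0.98 ± 0.16; edgeR adjusted p = 0.0024 and 3.0e-04).

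Of the 8 members that were not tested, H2-Ab1 and Ciita are given above, and the others are class I heavy chains with at most 22 counts in any group. H2-T22 had 3, 4 and 3 counts in fibroblasts, 2, 0 and 0 in iOB and 1, 1 and 1 in calvarial-OB. The 95% Clopper-Pearson interval of its fibroblast to iOB ratio ran from 0.769 to 33.9 and covers counting error only. H2-M2 had no counts in fibroblasts, 1 in iOB and 15, 2 and 5 in calvarial-OB, at least 6.86-fold above fibroblasts, or 2.95-fold without calvarial-OB replicate 1 and 10.3-fold without replicate 3, or 4.08-fold without fibroblast replicate 3 and 4.41-fold without fibroblast replicate 1. H2-M5 had 7 counts in fibroblasts, 15 in iOB and 16 in calvarial-OB. H2-L, H2-M9 and H2-M10.2 had at most 5 counts in a group, too few to show a difference at this depth.

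Set against calvarial-OB, iOB had higher levels of the light chain and loading genes, of Nlrc5 and of 7 of 14 tested heavy chains, while no immunoproteasome subunit was called. Of the 30 tested members 14 were called higher in iOB and 1 lower, beside 24.7% and 24.1% of all genes, and the median log2 fold change was 0.60 beside -0.03 over all genes. iOB libraries lay above all calvarial-OB libraries for 12 members and below for 1, beside 28.1% and 27.3%. Without calvarial-OB replicate 1 the count called higher became 22, and over the other single libraries left out it was 10 or more. The light chain and loading genes were all higher in iOB: Tap1 by 1.12 ± 0.19 (edgeR adjusted p = 4.3e-04), Tap2 by 0.93 ± 0.16 (6.1e-04), Tapbp by 0.92 ± 0.19 (0.0017) and B2m by 0.63 ± 0.15 (0.0038). Nlrc5 was higher by 1.19 ± 0.29 (edgeR adjusted p = 0.0051), and these 5 calls held without each library in turn.

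Of the 14 tested heavy chains 7 were higher in iOB than in calvarial-OB, beside 24.7% of all tested genes. H2-Q2 by 1.38 ± 0.20 (edgeR adjusted p = 1.8e-04), H2-Bl by 1.46 ± 0.33 (0.0034) and H2-T10 by 0.77 ± 0.20 (0.0067) kept their calls without each library in turn. H2-K1, at 0.72 ± 0.21 (edgeR adjusted p = 0.015), lost its call without calvarial-OB replicate 2 or 3 or iOB replicate 2 or 3 (adjusted p 0.057 to 0.062). H2-Q1, at 0.87 ± 0.27 (edgeR adjusted p = 0.019), lost it without calvarial-OB replicate 2 or 3 or iOB replicate 3 (0.076 to 0.080). H2-Q4, at 1.10 ± 0.38 (edgeR adjusted p = 0.03), lost it without the same 3 libraries or iOB replicate 2 (0.071 to 0.12) and with DESeq2 (0.085). H2-T3, at 1.44 ± 0.45 (edgeR adjusted p = 0.019), lost it without calvarial-OB replicate 3 or iOB replicate 3 (0.076 and 0.084). The other 7 were not called, and their groups overlapped. H2-D1 had -0.07 ± 0.19 (edgeR adjusted p = 0.77), H2-T24 0.14 ± 0.41 (0.79), H2-Q10 0.37 ± 0.40 (0.47) and H2-Q5 0.60 ± 0.50 (0.35). H2-K2 had 0.49 ± 0.42 (edgeR adjusted p = 0.36), H2-M3 0.60 ± 0.27 (0.089) and H2-T23 0.57 ± 0.25 (0.076).

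The immunoproteasome was not called in this comparison in any of its 3 subunits, with 0.39 ± 0.19 for Psmb8 (edgeR adjusted p = 0.1), 0.11 ± 0.30 for Psmb9 (0.8) and -0.34 ± 0.20 for Psmb10 (0.18). Without calvarial-OB replicate 1 Psmb8 and Psmb9 were called higher in iOB, at 0.66 and 0.62 (adjusted p = 0.0038 and 0.026). Among class II genes H2-DMb2 was higher in iOB by 1.96 ± 0.28 (edgeR adjusted p = 1.7e-04) and H2-DMb1 by 1.40 ± 0.29 (0.0017), with and without each library. Cd74 had -0.24 ± 0.85, H2-Aa -0.30 ± 1.10 and H2-Eb1 0.03 ± 0.79, all uncalled, and these became 1.83, 2.84 and 1.93 and were called (adjusted p = 0.030, 0.018 and 0.025) without calvarial-OB replicate 1. Without that library H2-K2, H2-M3 and H2-T23 were also called higher (1.31, 1.10 and 0.98). H2-Ke2 was lower in iOB, at -0.85 ± 0.11 (edgeR adjusted p = 9.2e-05).

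Lists of known pathway genes were read around these members. Of 21 tested interferon-stimulated genes 20 were called higher in iOB and none lower, with a median log2 fold change of 2.21. In calvarial-OB 6 were called higher, 1 lower and 14 neither, with a median of 0.38, and 19 were higher in iOB than in calvarial-OB, with a median of 1.61. Of all tested genes 22.7% and 20.6% were called higher and lower in iOB, and 28.4% and 27.4% in calvarial-OB. Between iOB and calvarial-OB these shares were 24.7% and 24.1%. The share of the list called higher in calvarial-OB was near that of all genes. In iOB the GTPase gene Irgm1 was at 1.90 ± 0.12, the oligoadenylate synthetase gene Oas1a at 6.08 ± 0.47 (6.71 without fibroblast replicate 2), Bst2 at 3.52 ± 0.28 and Oasl2 at 3.85 ± 0.31. In calvarial-OB Oas1a was at 4.93 ± 0.49 (5.53 without fibroblast replicate 2), Bst2 at 2.75 ± 0.28 and Iigp1 at 1.53 ± 0.32, and the RNA sensor gene Ddx58 fell (-0.66 ± 0.14). Summed over 22 genes the list held 168 to 221 CPM in fibroblasts, 603, 993 and 917 in iOB and 369, 208 and 244 in calvarial-OB.

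Regulators of the response varied. Irf7, a master factor of the type I interferon response, was at 3.27 ± 0.38 in iOB (edgeR adjusted p = 2.9e-05) and 0.55 ± 0.40 in calvarial-OB (edgeR adjusted p = 0.27), and it was higher in iOB than in calvarial-OB by 2.73 ± 0.36 (edgeR adjusted p = 8.9e-05). Irf9 had 1.17 ± 0.14, 0.26 ± 0.14 and 0.92 ± 0.14 in the same order, the second not called (edgeR adjusted p = 0.14). Irf1, a factor induced by interferon-gamma, was at 1.77 ± 0.62 in calvarial-OB (edgeR adjusted p = 0.03), where replicate 1 held 1838 counts beside 297 and 468. Without that replicate it was 0.23 (adjusted p = 0.47), and without fibroblast replicate 2 or 3 the adjusted p was 0.091. In iOB Irf1 had 1.71 ± 0.62 (edgeR adjusted p = 0.044), which missed the threshold without any 1 fibroblast library or iOB replicate 1 or 2 (0.058 to 0.13). The authors' deposited table for iOB GFP+ gives 2.59 ± 0.35 for Irf1 (adjusted p = 7.6e-13), and that for unsorted iOB 1.36 ± 0.63 with no p. Over the interferon-gamma list, 4 of 7 tested genes were higher and 1 lower in iOB and 3 higher and 2 lower in calvarial-OB. The receptor gene Ifngr1 rose in both (0.93 ± 0.15 and 1.17 ± 0.15) and the kinase gene Jak1 fell in calvarial-OB (-1.11 ± 0.11). Of 7 tested genes of type I interferon signalling 4 were higher in iOB and 1 in calvarial-OB, and none lower. This list and the interferon-gamma list are read against 22.7% higher and 20.6% lower of all tested genes in iOB. In calvarial-OB these shares were 28.4% and 27.4%. The interferon genes of both lists, Ifng, Ifnb1, Ifna1, Ifna2 and Ifna4, were not among the genes counted. Of 13 factors known to act on MHC promoters 3 were higher and 3 lower in iOB, and 3 higher and 4 lower in calvarial-OB, shares near those of all tested genes (22.7% and 20.6%, and 28.4% and 27.4%). Rfx5, a subunit of the class II promoter complex, fell in calvarial-OB (-0.50 ± 0.13), and Irf8, a factor of myeloid cells, rose in both (5.52 ± 0.56 and 6.61 ± 0.53).

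Of 10 other loading and MHC-like genes 3 were higher and 2 lower in iOB and 2 higher and 4 lower in calvarial-OB, which is read against 22.7% and 20.6% of all genes in iOB and 28.4% and 27.4% in calvarial-OB. The chaperone gene Canx fell in both (-0.51 ± 0.12 and -1.04 ± 0.12), and Fcgrt, the neonatal Fc receptor gene, rose in both (1.16 ± 0.19 and 1.21 ± 0.19). Of 7 measured genes of class II processing 4 were higher in iOB, and in calvarial-OB 5 were higher and 2 lower. The protease gene Ctss, known for trimming the invariant chain in macrophages and B cells, rose by 6.68 ± 0.34 and 7.95 ± 0.35, and Ctsb by 0.91 ± 0.20 and 1.79 ± 0.20. Of 6 measured costimulatory genes 4 were higher in iOB, and in calvarial-OB 4 were higher and 1 lower. The adhesion gene Icam1 was at 2.56 ± 0.50 in iOB and 2.50 ± 0.49 in calvarial-OB, 3.16 and 3.10 without fibroblast replicate 1 and 1.63 in the latter without calvarial-OB replicate 1. The checkpoint ligand gene Cd274 rose by 2.54 ± 0.58 in iOB, and Cd80 fell in calvarial-OB (-1.49 ± 0.20).

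Sorting for the Col2.3 reporter bears on which cells of the iOB culture carry these transcripts, as far as 2 tables of the authors' own values can show. Both tables use fibroblasts as the reference, so they share controls, and the difference between them was not tested. In the authors' deposited table for iOB GFP+, 37 of the 38 members have a row and 36 an adjusted p. Among these entries of the authors' deposited table, 25 were called higher and none lower, beside 23.7% and 21.7% of the 16328 genes with an adjusted p, with a median log2 fold change of 1.59 beside 0.03 over all genes. In the authors' deposited table for unsorted iOB, 34 members had an adjusted p and 25 were called higher and none lower, beside 19.9% and 15.0% of 16208 genes, with a median of 1.81 beside 0.01. Fold changes of low-count genes in the authors' deposited table for iOB are smaller than those fitted here, such as 1.80 ± 0.79 (their SE) for H2-Aa. For the 38 members these deposited values differed by a median of 0.0052 from a DESeq2 fit with its prior on fold changes and by 0.15 from one without it.

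Class I genes were high in the sorted cells. The authors' deposited table gives 2.22 ± 0.19 for B2m in iOB GFP+ and 2.20 ± 0.16 in unsorted iOB. For H2-D1 the authors' deposited tables give 2.65 ± 0.15 and 2.61 ± 0.21, and for H2-K1 2.28 ± 0.25 and 2.07 ± 0.22. Nlrc5 has 2.95 ± 0.31 and 2.73 ± 0.34 in the authors' deposited tables, Psmb8 2.23 ± 0.22 and 2.52 ± 0.22, and Psmb9 2.90 ± 0.39 and 3.01 ± 0.37. All of these were called in both, as were Psmb10, Tap1, Tap2 and Tapbp. Tap1 stands at 1.11 ± 0.16 and 1.32 ± 0.20 in the authors' deposited tables. Of 18 heavy chains with an adjusted p in the authors' deposited iOB GFP+ table, 12 were called higher, beside 23.7% of its genes with one. H2-T24 was not among them (0.89 ± 0.78, adjusted p = 0.37, beside 2.37 ± 0.51 in the authors' deposited iOB table), and H2-T10 was called in neither (-0.12 ± 0.22 and 0.18 ± 0.21). H2-Q5, H2-T3 and H2-Q10 have 3.37 ± 0.55, 3.24 ± 0.53 and 2.59 ± 0.34 in the authors' deposited iOB GFP+ table. The authors' deposited iOB table gives 2.28 ± 0.59, 2.17 ± 0.51 and 1.45 ± 0.45 for these genes. The highest SE of any gene is 1.11 in the authors' deposited iOB GFP+ table and 0.786 in their iOB table. Whether the prior on fold changes was alike in both was not tested, so values of low-count genes may not compare directly.

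The class II genes again split. The H2-DM beta chains were called in the sorted cells, at 3.23 ± 0.36 for H2-DMb1 and 2.91 ± 0.46 for H2-DMb2 in the authors' deposited table, and H2-DMa was not (-0.18 ± 0.41). Cd74 (1.62 ± 1.03, adjusted p = 0.20), H2-Eb1 (1.56 ± 0.87, 0.13) and H2-Aa (0.83 ± 0.94, 0.51) were not called in the authors' deposited iOB GFP+ table, and H2-Ab1 was (1.78 ± 0.76, 0.043), with base means of 0.911 to 10.7 normalized counts. The authors' deposited table for unsorted iOB calls H2-Eb1 (2.22 ± 0.69, 0.0055), does not call H2-Ab1 (1.49 ± 0.72, 0.097) or H2-Aa (1.80 ± 0.79, 0.061), and gives no p for Cd74 (1.75 ± 0.78). Of the macrophage markers, 18 of 19 have a fold change but no p-value in the authors' deposited iOB GFP+ table, as do 377 of its 17737 rows (2.13%), while all 19 have one in the iOB table. The only marker with a p-value in the authors' deposited iOB GFP+ table was Fcer1g (4.84 ± 0.62). The 19 log2 fold changes run from 2.18 to 4.84 with SEs of 0.622 to 1.08 in the authors' deposited iOB GFP+ table, and from 2.77 to 6.68 in their iOB table. Values per library for iOB GFP+ are not used here, so neither the spread behind those entries nor the part of macrophage RNA in the sorted values was tested. Of 22 interferon-stimulated genes 15 were called higher and 1 lower in the authors' deposited iOB GFP+ table, with Irf7 at 4.07 ± 0.32 there. Of all its genes with an adjusted p, 23.7% were called higher and 21.7% lower.

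**Figure D4:**
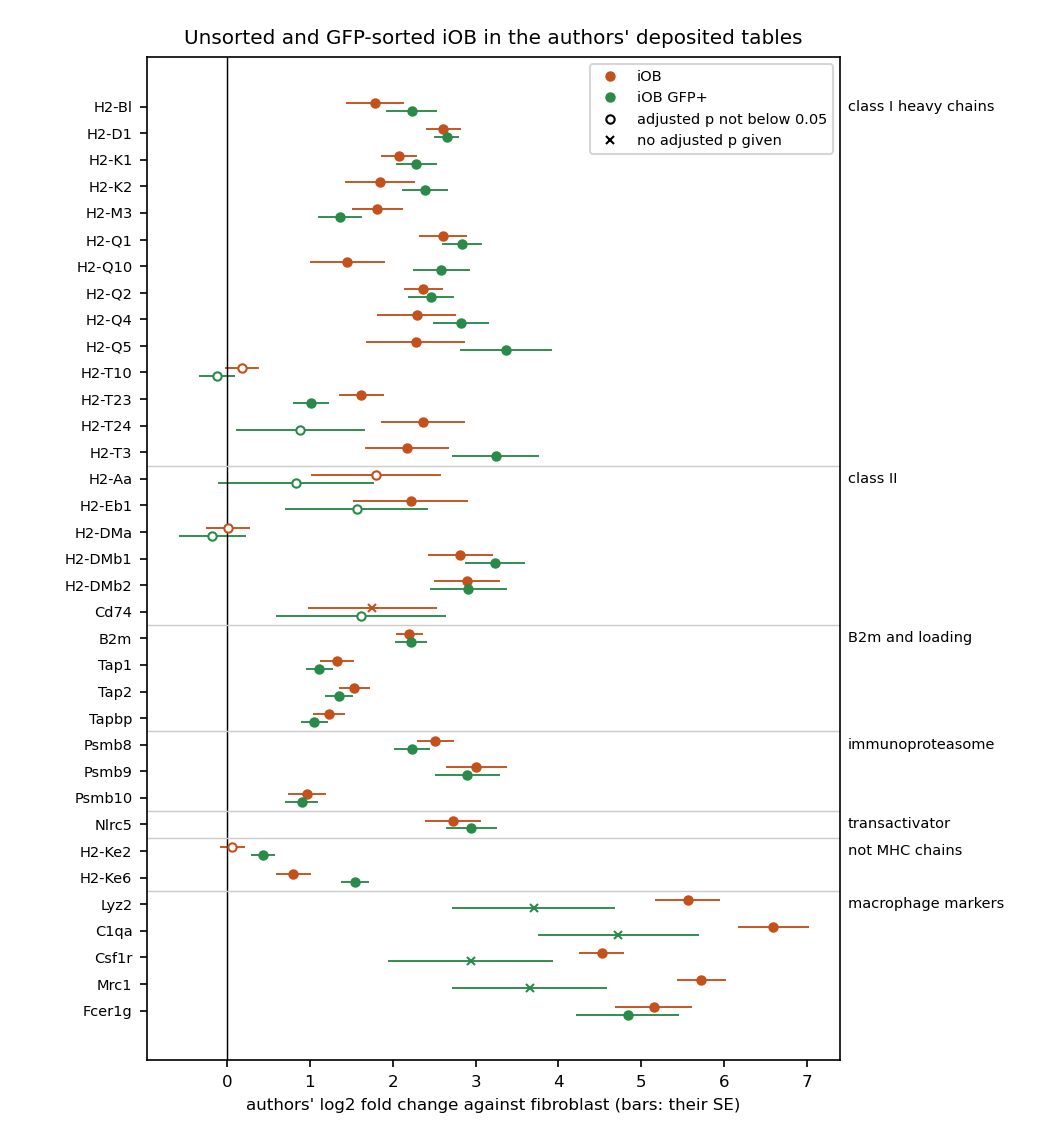
Log2 fold changes against fibroblasts from the authors' deposited tables for unsorted iOB (orange) and iOB GFP+ (green), with their SEs, for the tested members and 5 macrophage markers. Class I, loading and immunoproteasome points of the sorted cells are filled except H2-T10 and H2-T24, and 4 of the 5 macrophage markers carry a cross in the sorted cells because no adjusted p is given.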

How the data were processed

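RNA sequencing of fibroblasts, iOB and calvarial-OB was analysed, 3 libraries each; bone chip cells and methylation data were not analysed here. The authors deposited raw counts per gene. They also deposited tables against fibroblasts that hold base means (a signal of normalized counts), log2 fold changes with standard errors, a score (the statistic of their test) and p-values, per the file headers. Per the submitters' processing notes, STAR 2.4.2a, Bowtie2, DESeq2, R 3.2.2 and build mm9 were used; counting program, annotation and strand setting are not given in the sources used here.

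Counts of all genes were fitted with edgeR 4.0.16 (R 4.3.3; filterByExpr, trimmed mean of M-values, glmQLFit and glmQLFTest over the 9 libraries with group as the only term), and p-values were adjusted by Benjamini-Hochberg over 13438 genes. The SE of a log2 fold change was taken as its absolute value over the root of edgeR's F. The column the table names OB was taken as calvarial-OB. The labels do not say whether libraries came from separate animals or cultures, so p-values measure the spread between these samples, which may be technical. A fold against a group at 0 was bounded with 3 counts over that group. Members, gene lists and tests were chosen with earlier results of these data known. Every member called at least once or central to the pathway is named with its values, and of other lists up to 4 genes (markers: 3) with the smallest adjusted p per comparison, except where a gene is given for all comparisons side by side. Those further values, the counterpart ratios and Cd4 were chosen after values were seen. Alternatives were other normalizations, no filter, a replicate block, fits of 2 groups, DESeq2 1.42.0, leaving out each library, and, chosen after seeing the data, leaving out calvarial-OB replicate 1 and iOB replicate 2 together. The promoter motifs were set, and trimmed by a base, after matches in these promoters had been seen. A further gene of the lists that this rule would name is not reported here.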

Additional observations from a re-analysis of the deposited data

How the results depend on the processing

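Of the 30 tested members, 24 kept their direction and their side of the threshold under every alternative run for iOB against fibroblasts, 19 for calvarial-OB against fibroblasts and 16 for iOB against calvarial-OB. Leaving out single libraries gave 23 to 26 members called higher in iOB than in fibroblasts and 0 lower, 18 to 24 higher and 0 to 1 lower in calvarial-OB, and 10 to 22 higher and 1 lower in iOB against calvarial-OB. The 22 came without calvarial-OB replicate 1, and the 0 lower in calvarial-OB without fibroblast replicate 1 or calvarial-OB replicate 2 or 3, where H2-T10 lost its call. With no filter on low counts 2 members were lower in iOB than in calvarial-OB; the cause of these shifts was not tested. Upper-quartile normalization moved the median log2 fold change of all genes to 0.104 for calvarial-OB against fibroblasts and -0.109 for iOB against calvarial-OB.

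Deviations of same-numbered libraries from their group means correlated at -0.146 to 0.147. With 3 libraries per group this cannot tell whether the numbers pair the samples, and the labels do not say. With the number as a replicate block 27, 24 and 15 members were called higher in the 3 comparisons and 0, 1 and 1 lower; H2-Aa in iOB against fibroblasts (adjusted p = 0.032) and H2-M3 in iOB against calvarial-OB (0.046) were newly called.

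An alternative chosen after seeing the data left out the pair of calvarial-OB replicate 1 and iOB replicate 2, which held most class II counts of their groups. Log2 fold changes that changed sign for iOB against calvarial-OB, with the reported value in brackets, were as follows. Cd74 (-0.24) had -1.26 to 1.82 over single libraries left out, 0.27 with the block, 0.76 without that pair. H2-Aa (-0.30) had -1.41 to 2.84 over single libraries left out, 0.16 with the block. H2-D1 (-0.075) had -0.25 to 0.23 over single libraries left out, 0.12 without that pair. H2-Eb1 (0.028) had -0.72 to 1.93 over single libraries left out, -0.052 with upper quartiles, -0.12 with DESeq2. H2-T24 (0.14) had -0.036 to 0.60 over single libraries left out. Psmb9 (0.11) had -0.11 to 0.62 over single libraries left out. Log2 fold changes that changed sign for calvarial-OB against fibroblast, with the reported value in brackets, were as follows. H2-Bl (0.39) had -0.065 to 0.76 over single libraries left out, -0.057 without that pair. Tap1 (0.21) had -0.042 to 0.40 over single libraries left out, -0.031 without that pair. Log2 fold changes that changed sign for iOB against fibroblast, with the reported value in brackets, were as follows. H2-DMa (-0.011) had -0.17 to 0.14 over single libraries left out, 0.00058 with upper quartiles, 0.016 with relative log expression, 0.01 with no filter, 0.0054 with the block, 0.021 with the 2 groups alone, 0.13 without that pair, 0.014 with DESeq2. H2-Ke2 (0.041) had -0.023 to 0.13 over single libraries left out. Class II chains other than H2-DM rest on a few counts per library, and depth limits what can be said of them and of the 8 untested members.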
